A study of Mus musculus with 14 samples.

Results

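Tau is a microtubule-associated protein of axons, and its transcript was followed here together with those of 4 other neuronal microtubule-associated proteins and of the best known tau kinases. The members were chosen by gene name and are 10 of the 43346 genes in the count table: Mapt, Map1a, Map1b, Map2, Map6, Gsk3a, Gsk3b, Cdk5, Cdk5r1 and Cdk5r2. All 10 were found under these names and all 10 passed the filter on low counts in every comparison. RNA was sequenced from frozen cross-sections of brain holding hippocampus and cortex, taken from 14 female mice of the strain labelled C57BL/6;SJL-Tg at 23 months of age. The groups were 4 non-transgenic mice (NTG, mice 7 to 10), 5 APP/PS1 mice (mice 16 to 20) and 5 APP/PS1 mice given CP2 (APP/PS1 + CP2, mice 21 to 25). APP/PS1 mice carry APP and PS1 transgenes with familial Alzheimer's disease mutations, and the labels give their genotype as APP/PS1 +/+. CP2 is a tricyclic pyrone and a weak inhibitor of complex I of mitochondria. Mice drank it for 14 months, starting when 9 months old, at a dose of 25 mg/kg/day. The NTG mice and the other APP/PS1 mice drank water with the vehicle, PEG. The promoter of the transgenes is not given in the sources used here, and NTG mice given CP2 were not analysed here.

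Microtubules are the tracks of axonal transport, and microtubule-associated proteins bind along them and change their stability. MAP2 is the best known marker of dendrites and tau of axons, MAP1A and MAP1B are large relatives of each other, and MAP6 protects microtubules from cold and drugs. Tau leaves microtubules when it is phosphorylated at many sites, and hyperphosphorylated tau forms the neurofibrillary tangles of Alzheimer's disease. GSK3α, GSK3β and CDK5 phosphorylate several of these sites. CDK5 is active only with a partner, p35 (gene Cdk5r1) or p39 (gene Cdk5r2), and the calpain proteases cut p35 into a longer-lived form. Read counts per gene pool the isoforms of tau and measure neither protein nor phosphorylation.

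In the 14 libraries total counts lay between 70548781 and 106235625. A read count was divided by the library total and edgeR's TMM factor, and is given as CPM to compare mice. One library stood apart in its tissue markers. APP/PS1 mouse 16 had a summed level of 11 striatal markers of 2707 CPM, against 215 to 411 CPM in the other 13 mice, and was the highest mouse for 11 of these 11 genes. Its thalamic sum (991 CPM) and its oligodendrocyte sum (5132 CPM) were the lowest of the 14. Of the 11 marker lists examined none had a gene at 0 in all mice, and all 15 neuronal and 12 cortical markers were above 1 CPM in every mouse. In bulk tissue fewer cells of a type and less RNA per cell cannot be told apart.

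Promoters of 6 of the 10 members were matched by symbol in RefSeq (build GRCm38.p6), and Mapt, Map6, Cdk5 and Cdk5r1 were not matched. The bases before the start of the gene are shown for Gsk3a and Cdk5r2, because they had the narrowest and the widest spread between mice of one group among these 6. Each is 150 bases long, 5′ to 3′ on the strand of the gene. Capitals mark the GC box (GGGCGG on either strand) and the CCAAT box (CCAAT on either strand), which did not overlap.
Gsk3a, chr7:25237852-25238001, minus strand: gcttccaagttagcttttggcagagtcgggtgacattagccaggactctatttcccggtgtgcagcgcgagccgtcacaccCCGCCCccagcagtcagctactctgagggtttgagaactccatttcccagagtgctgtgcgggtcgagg
Cdk5r2, chr1:74854784-74854933, plus strand: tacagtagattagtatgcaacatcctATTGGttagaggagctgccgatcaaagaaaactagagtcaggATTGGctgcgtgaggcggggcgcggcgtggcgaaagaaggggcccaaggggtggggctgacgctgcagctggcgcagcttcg
The Gsk3a stretch held 1 GC box and no CCAAT box, and the Cdk5r2 stretch held 2 CCAAT boxes and no GC box. Neither held a TATA box (TATAAA). Their GC contents of 58.7% and 58.0% were close to each other, beside a median of 54% over all promoters of the table. Among 32851 promoters of the same length a GC box stood in 28.6%, a CCAAT box in 24.5% and a TATA box in 7.57%. These promoters and the Gsk3a stretch end at the RefSeq start. The Cdk5r2 stretch ends at the gene start used for counting, 95 bases further upstream, so it is compared with stretches at another position. A match describes letters only.

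All 10 transcripts were well expressed. Levels of different genes were compared by the authors' RPKM, which divides a count by gene length and library size. Averaged over 14 mice, Map1a was the highest member at 106 RPKM and Map1b came second at 88.3 RPKM. Gsk3a (61.6 RPKM), Map2 (59.4 RPKM), Cdk5r2 (53.3 RPKM), Mapt (52.6 RPKM) and Cdk5r1 (44.8 RPKM) followed. Cdk5 (32.1 RPKM), Gsk3b (20.9 RPKM) and Map6 (15.2 RPKM) were the lowest. Even Map6 lay above 79.8% of the 16521 genes tested in any comparison, and Map1a above 98.4%.

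Most neighbours in this order overlapped between mice. The ranges of 14 mice were separate only between Map1b and Gsk3a, between Cdk5 and Gsk3b, and between Gsk3b and Map6. Map1a exceeded Map1b in each of the 14 mice, although the ranges met. Cdk5r2 and Mapt could not be ordered, since Cdk5r2 was the higher in 5 of 14 mice. Gene length weighs in this scale: Map2 (16449 bases) had a mean of 1187 CPM and Gsk3a (2260 bases) one of 169 CPM, while per length the median ratio of Gsk3a to Map2 was 1.03. Reads were counted on every gene they overlapped. For Gsk3a the overlapping gene 9130221H12Rik held counts equal to 38.2% of those of Gsk3a, for Map1a Ppip5k1 held 7.96%, and for Map2 Gm10558 held 1.27%, so the levels of these 3 members are less certain. For the other 7 members overlapping genes held at most 0.0656% of the member's counts.

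**Figure D1:**
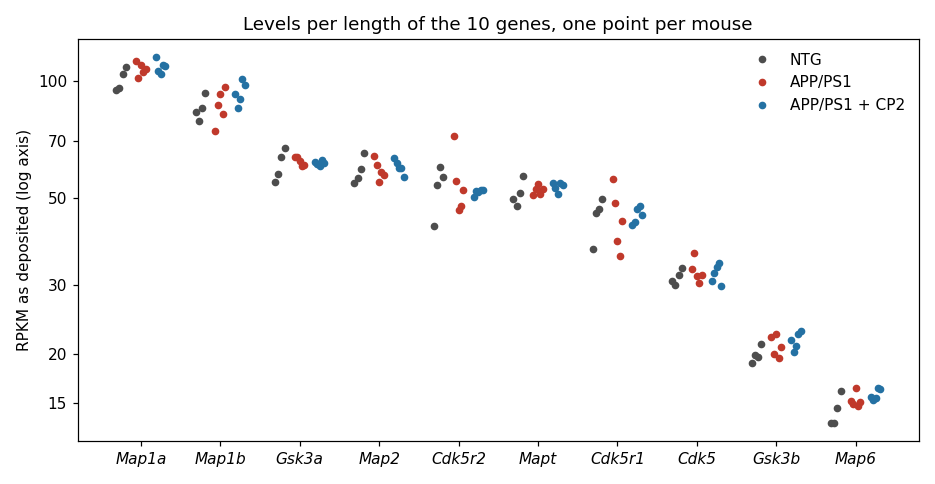
Level per length of each member (authors' RPKM, log axis), 1 point per mouse, coloured by group, with genes ordered by their mean over 14 mice. Map1a and Map1b sit at the top (means of 106 and 88.3 RPKM), Gsk3b and Map6 at the bottom (20.9 and 15.2 RPKM), and the 3 groups overlap within each gene.

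The transcript of tau was nearly level across the 14 mice. Mapt (ENSMUSG00000018411, chromosome 11, 104231390 to 104332090 on mm10) measured 462, 465, 493 and 519 CPM in NTG mice 7 to 10. In APP/PS1 mice 16 to 20 it measured 464, 460, 477, 463 and 495 CPM. In mice 21 to 25, given CP2, it measured 492, 472, 486, 493 and 485 CPM. The highest mouse (NTG 10) exceeded the lowest (APP/PS1 17) by 1.13 times, and the 3 groups overlapped. Group means were 485 ± 26.8 (SD, n = 4), 472 ± 14.6 (SD, n = 5) and 486 ± 8.52 CPM (SD, n = 5).

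The dendritic protein gene Map2 was more spread. It measured 1114, 1196, 1242 and 1297 CPM in the NTG mice. In APP/PS1 mice it measured 1272, 1153, 1058, 1151 and 1168 CPM, with mouse 16 high and mouse 18 lowest of the 14. After CP2 it measured 1247, 1193, 1235, 1176 and 1112 CPM. These values lay inside the range spanned by the other groups.

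Map1a and Map1b, which encode precursors cut into heavy and light chains, were both abundant. Map1a ranged from 1422 to 1611 CPM in NTG mice, in APP/PS1 mice from 1426 to 1650 CPM, and after CP2 from 1525 to 1667 CPM. Map1b, the form known from developing axons, measured 1216, 1211, 1283 and 1325 CPM in NTG mice. In APP/PS1 mice it measured 1064, 1182, 1277, 1162 and 1414 CPM, so that mouse 16 was the lowest and mouse 20 the highest of its group. With CP2 it measured 1304, 1194, 1339, 1430 and 1378 CPM. Map1b was the most variable of the 5 microtubule protein genes. Map6 ranged from 114 to 135 CPM in NTG mice, in APP/PS1 mice from 120 to 133 CPM, and after CP2 from 126 to 136 CPM, and its lowest mouse was NTG 7.

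The 2 genes for GSK3 overlapped between groups as well. Gsk3a measured 154, 169, 184 and 183 CPM in NTG mice, from 164 to 174 CPM in APP/PS1 mice and from 163 to 172 CPM in APP/PS1 + CP2 mice. The NTG group held both its lowest mouse (7) and its highest (9). Gsk3b measured 230, 252, 245 and 251 CPM in NTG mice, from 226 to 263 CPM in APP/PS1 mice and from 235 to 268 CPM with CP2. The catalytic subunit gene Cdk5 was the least counted member, at 77.9 to 83.2 CPM in NTG mice, in APP/PS1 mice at 74.5 to 85.6 CPM, and after CP2 at 73.0 to 86.1 CPM.

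The genes of the CDK5 activators were the most uneven members. Cdk5r1 measured 190, 246, 248 and 250 CPM in NTG mice 7 to 10, where mouse 7 stood alone. In APP/PS1 mice 16 to 20 it measured 281, 233, 189, 177 and 226 CPM. In CP2-treated mice 21 to 25 it measured 212, 213, 246, 237 and 225 CPM. The APP/PS1 group therefore held both the highest mouse (16) and the lowest (19).

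Cdk5r2 followed the same mice. It measured 146, 196, 214 and 191 CPM in NTG mice and 244, 178, 152, 160 and 183 CPM in APP/PS1 mice. With CP2 it measured 168, 172, 183, 175 and 175 CPM, a narrow band inside the ranges of both other groups. Its SD was 28.8 CPM among NTG mice (n = 4), 36.3 CPM among APP/PS1 mice (n = 5) and 5.24 CPM after CP2 (n = 5). The difference in spread between groups was not tested.

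**Figure D2:**
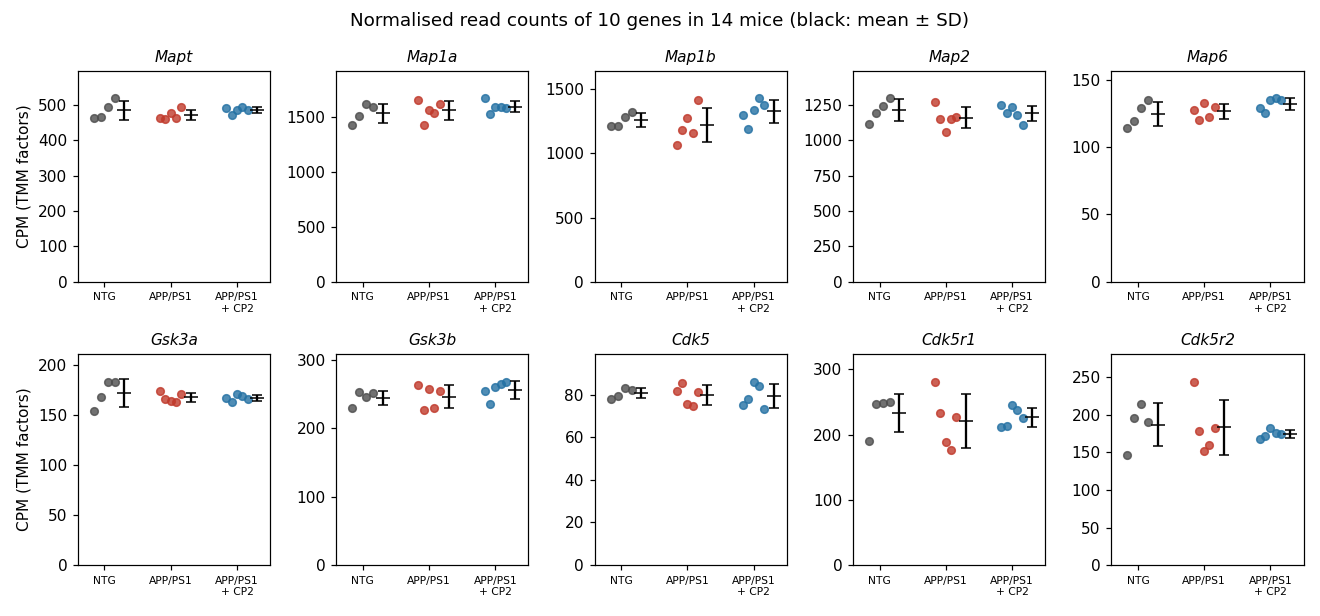
Normalised read count (CPM, axes from 0) of each member by group (NTG left, vehicle middle, CP2 right), 1 point per mouse, with the mean and SD of each group in black. The groups overlap in all 10 panels, Mapt is the flattest (460 to 519 CPM) and Cdk5r1 and Cdk5r2 are the most scattered (177 to 281 and 146 to 244 CPM).

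The first comparison asked whether amyloid-bearing APP/PS1 mice at 23 months differ from NTG mice in these transcripts. None of the 10 members passed edgeR's quasi-likelihood test at an adjusted p under 0.05, against 5.68% of the 16417 genes tested (932 genes). None had an unadjusted p under 0.05, against 18.7% of all genes, and none had groups that did not overlap, against 10%. The log2 fold changes lay between −0.07 (Cdk5r1) and 0.03 (Map6), with 3 members higher and 7 lower. On the scale of the authors' RPKM, without TMM factors and with another library size, 6 of these 7 (all but Cdk5r1) stood above 0. Their median size was 0.03, beside 0.09 over all genes tested. The smallest unadjusted p was 0.417 (Map2). Microglial markers moved with these groups: the summed level of 13 markers was 459 to 485 CPM in NTG mice, 933 to 1392 CPM in APP/PS1 mice and 805 to 1180 CPM after CP2. Thalamic and dentate gyrus markers also separated APP/PS1 from NTG mice. The sum of 11 thalamic markers was 1366 to 1650 CPM in NTG mice, 991 to 1328 CPM in APP/PS1 mice and 1297.5 to 1648 CPM after CP2. That of 10 dentate gyrus markers was 411 to 452, 371 to 403 and 383 to 405 CPM in the same order. Sums of the other marker lists overlapped between APP/PS1 and NTG mice. The part of cell types and regions in the differences of the members and lists was not tested.

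For tau the log2 fold change was −0.03 (SE 0.05), and its 95% interval ran from −0.14 to 0.08, which is a change of −9.48% to 5.67% (edgeR, adjusted p = 0.794). The interval for Gsk3b ran from −7.36% to 10.6% and that for Cdk5 from −7.67% to 6.92%. For the activators the data were less precise: the interval for Cdk5r1 ran from −22.5% to 16.8% and that for Cdk5r2 from −21.0% to 23.4%. Without mouse 16 the log2 fold change was −0.17 for Cdk5r1 (edgeR, adjusted p = 0.411) and −0.14 for Cdk5r2 (adjusted p = 0.494), and again none of the 10 members passed. Without mouse 16 Map1b stood at 0.01 and Gsk3b at −0.01, each with the opposite sign to that over all mice.

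The second comparison asked whether CP2 changed these transcripts in APP/PS1 mice. None of the 10 members passed, where 0.00609% of all genes did (1 of 16407). None had an unadjusted p under 0.05, against 6.55% of all genes, and none had groups that did not overlap, against 1.14%. The difference furthest from 0 was that of Map1b, with a log2 fold change of 0.12 (SE 0.08, 95% interval −0.05 to 0.29, edgeR, unadjusted p of 0.136, adjusted p = 0.762). Without APP/PS1 mouse 20 it was 0.19 (edgeR, unadjusted p of 0.0200, adjusted p = 0.610), and without mouse 16 it was 0.08. Map6 stood at 0.06 and Gsk3b at 0.06, and Gsk3a and Cdk5 at −0.01.

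Mapt differed by 0.04 on the log2 scale after CP2 (SE 0.04), an interval of −2.65% to 8.90% (edgeR, adjusted p = 0.823). The interval of Gsk3a was the narrowest of any member, from −5.36% to 4.82%. Those of Cdk5r1 and Cdk5r2 again were wide, from −13.5% to 21.2% and from −19.4% to 12.5%. Cdk5r2 stood at −0.07 with all mice and at 0.06 without APP/PS1 mouse 16. Its sign also turned in 2 of the 8 alternatives that kept every mouse, reaching 0.05. Over the 10 members 7 values were above 0 and 3 below.

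The third comparison set APP/PS1 + CP2 mice against NTG mice, and shares its mice with the first 2. None of the 10 members passed, against 6.02% of 16416 genes. None had an unadjusted p under 0.05, against 20.2%, and none had groups that did not overlap, against 9.61%. Map6 stood furthest above 0 with a log2 fold change of 0.10 (SE 0.05, 95% interval −0.01 to 0.21, edgeR, unadjusted p of 0.0799, adjusted p = 0.312). Map1b stood at 0.09, Gsk3b at 0.08 and Mapt at 0.01 (95% interval −0.08 to 0.11).

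One member changed its call when a single mouse was left out. Cdk5r2 had a log2 fold change of −0.08 over all mice (SE 0.09, edgeR, adjusted p = 0.652). Without NTG mouse 7, the lowest of all 14 for this gene, it was −0.18 (edgeR, adjusted p = 0.0384). In that fit 1044 genes passed, beside 989 over all mice. Over its other alternatives the value of Cdk5r2 stayed between −0.14 and −0.01. In the same fit without mouse 7 Cdk5r1 stood at −0.12 (edgeR, adjusted p = 0.216).

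**Figure D3:**
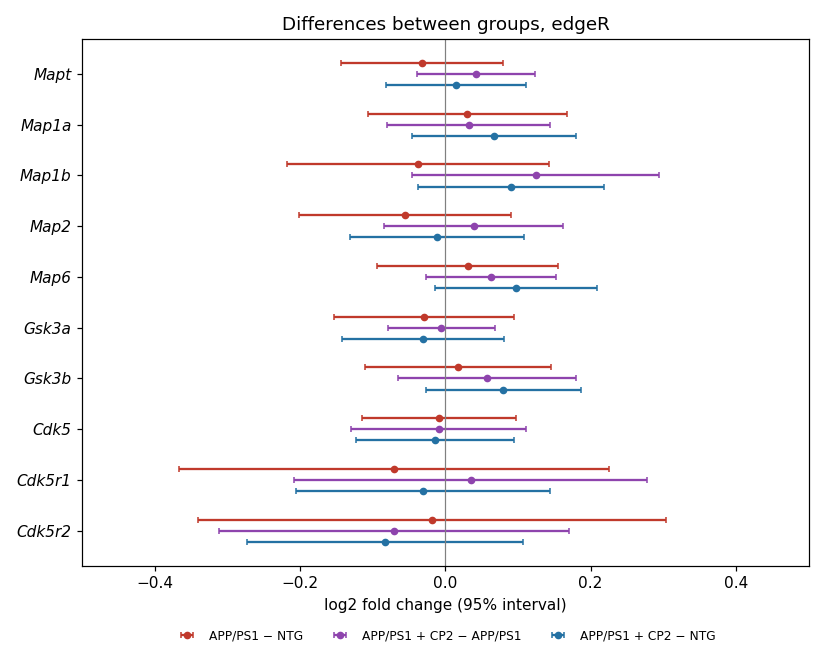
Log2 fold change of each member in the 3 comparisons (points) with its 95% interval from edgeR's quasi-likelihood fit (bars), on a common axis with 0 marked. All 30 intervals include 0, and those of Cdk5r1 and Cdk5r2 are the widest, reaching from −0.37 to 0.30 between APP/PS1 and NTG mice.

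Ratios of counts within a mouse do not depend on scaling between libraries. A total of 4 ratios were compared in 3 comparisons by an exact permutation test, two-sided, for which the smallest possible p is 0.00794. Cdk5r1 gave 2.37 to 3.44 counts per count of Cdk5 over the 14 mice and Cdk5r2 gave 1.88 to 2.99. Gsk3b gave 1.33 to 1.62 counts per count of Gsk3a. None of the 12 tests passed after Benjamini-Hochberg adjustment. The smallest p was that of Gsk3b to Gsk3a between APP/PS1 + CP2 and NTG mice (difference in mean log2 ratio 0.11, exact permutation p = 0.0794, adjusted p = 0.952), and the other 11 had an adjusted p of 0.992.

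The members differed in how steady they were from mouse to mouse. The pooled SD within groups, on the log2 scale, was 0.05 for Mapt, lower than that of all but 3.04% of the 16521 genes. It was 0.07 for Gsk3a, Map1a and Map6, 0.08 for Gsk3b, Cdk5 and Map2, and 0.12 for Map1b, beside a median of 0.13 over all genes. Cdk5r1 and Cdk5r2 lay on the other side of that median, at 0.20 each, above 72.8% and 74.4% of genes. Counting error was far smaller in every member, with an expected coefficient of variation between 0.314% (Map1a) and 1.37% (Cdk5).

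The activator genes varied together. The within-group SD of the log2 ratio of Cdk5r1 to Cdk5r2 was 0.08, against 0.20 for each gene alone. Across the 45 pairs of members this SD was lowest for Mapt and Map6 (0.04) and highest for Map1b and Cdk5r2 (0.26). Cdk5r2 ranked 37 of 16521 genes in likeness to Cdk5r1, measured as the mean absolute difference of centred log2 CPM over 14 mice. Over 16520 genes this difference had a Spearman's rho of 0.71 with the SD of each gene over the 14 mice. The rank therefore partly follows how much a gene varies. Pld3, Pcsk2, Dnal1 and Cyp46a1 were among the 5 genes most like Cdk5r1, which was looked at after its values were seen.

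The same 3 mice were lowest for both activators and stood apart in tissue markers. For Cdk5r1 and for Cdk5r2 the lowest mice were NTG 7, APP/PS1 18 and APP/PS1 19. These mice also had the lowest summed levels of 12 cortical layer markers (576, 629 and 598 CPM, against 672 to 948 CPM in the others) and the highest summed levels of 12 oligodendrocyte markers (8166, 7656 and 7103 CPM, against 5132 to 6612 CPM). Their sums of 15 neuronal markers were the lowest as well, at 9256, 9223 and 8878 CPM, though close to the 9435 to 11136 CPM of the others. Mouse 16, the highest for both activators, had the highest cortical sum (948 CPM) and the highest neuronal sum (11136 CPM), beside its striatal level. It was the highest mouse for only 6 of the 15 neuronal and 7 of the 12 cortical markers. Its sum of 8 immature neuron markers (379 CPM) was the lowest of the 14. The part of tissue composition in the levels of Cdk5r1 and Cdk5r2 was not tested. Mapt measured 462, 477 and 463 CPM in mice 7, 18 and 19 and 464 CPM in mouse 16, within 460 to 519 CPM over all 14. Counted from the highest of 14 mice, mice 7, 19 and 16 ranked 13, 12 and 11 for Mapt and mouse 18 ranked 8. Mouse 16 thus lay low beside mice 7 and 19, unlike for the activators.

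**Figure D4:**
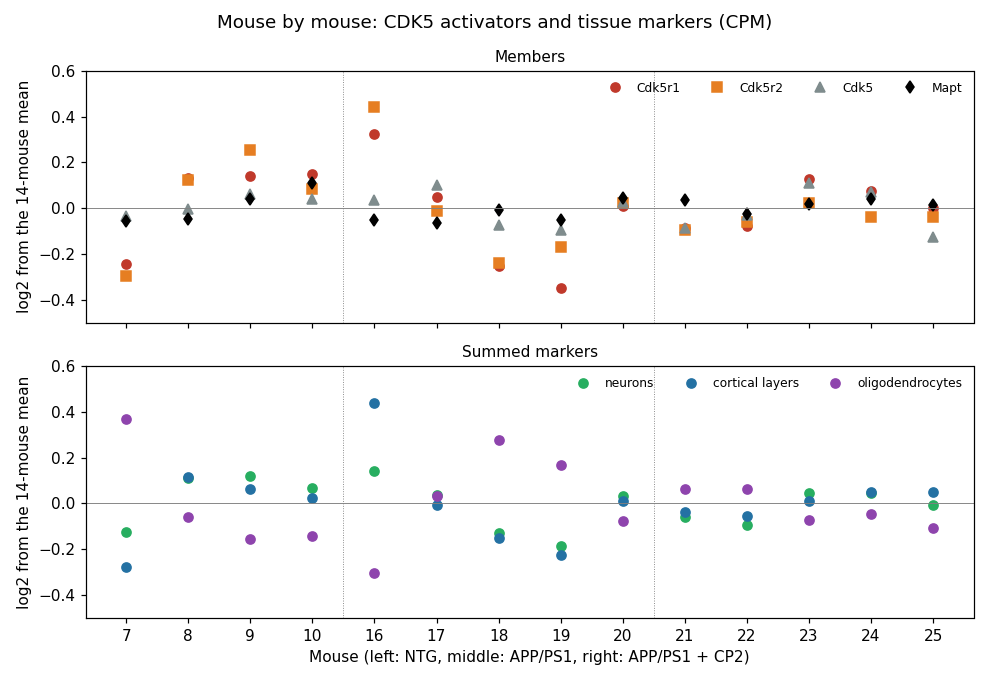
Upper panel: log2 CPM of Cdk5r1, Cdk5r2, Cdk5 and Mapt in each mouse as the difference from the mean over 14 mice. Lower panel: the same for the summed CPM of neuronal, cortical layer and oligodendrocyte markers, on the same scale. Mice 7, 18 and 19 are low for Cdk5r1 and Cdk5r2 and for neuronal and cortical markers and high for oligodendrocyte markers, mouse 16 shows the reverse, and Mapt stays within 0.12 of its mean.

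By the mean absolute difference of centred log2 CPM over 14 mice, the 5 genes closest to Mapt were Mapk8ip3, Tacc2, 2610507B11Rik, Mapk8ip2 and Tom1l2, each with a difference of 0.02. This measure mostly ordered genes by how little they varied, since Mapt itself was nearly level: over 16520 genes its Spearman's rho with the SD of each gene over the 14 mice was 0.96, so it carries little about a shared pattern. Mapk8ip3 and Mapk8ip2 encode scaffold proteins of JNK signalling and kinesin transport.

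The surrounding pathway was read from 10 lists of 269 genes, of which 261 were tested in each comparison: other tau kinases, tau phosphatases, regulators of GSK3 and of CDK5, other microtubule-associated proteins, tubulins, tubulin-modifying enzymes, motors, tau chaperones and partners, and neurofilaments. Between APP/PS1 and NTG mice 1 listed gene rose and 3 fell, which is 1.53% of those tested beside 5.68% of all genes, and 34 had an unadjusted p under 0.05 (13% beside 18.7%). Without mouse 16 the count was 10, without NTG mouse 9 or NTG mouse 10 it was 1, and without APP/PS1 mouse 17, 19 or 20 it was 2. In the same fits all genes called numbered 1486 without mouse 16, and 578 and 651 without NTG mouse 9 or 10, in place of 932. They numbered 766, 727 and 729 without APP/PS1 mouse 17, 19 or 20. When CP2 was compared with vehicle in APP/PS1 mice, 0 listed genes passed in edgeR (17 at an unadjusted p under 0.05, which is 6.51% beside 6.55% of all genes) and 0 in DESeq2. Between APP/PS1 + CP2 and NTG mice 2 rose and 3 fell, which is 1.92% beside 6.02%, and 44 had an unadjusted p under 0.05 (16.9% beside 20.2%). Without NTG mouse 7 that count was 14, without mouse 23 it was 8, without mouse 21, 24 or 25 it was 3, and without NTG mouse 8, 9 or 10 it was 2. All genes called in these fits numbered 1044 without NTG mouse 7 and 1123 without mouse 23, in place of 989. They numbered 616, 695 and 818 without mouse 21, 24 or 25, and 623, 572 and 673 without NTG mouse 8, 9 or 10.

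The 4 genes called in APP/PS1 mice came from 3 lists, the regulators of GSK3, the other microtubule-associated proteins and the motors. Dvl1, a Wnt pathway protein that restrains GSK3β, measured 75.1 ± 3.85 CPM (SD, n = 5) in APP/PS1 mice and 91.7 ± 5.56 CPM (SD, n = 4) in NTG mice, and fell by 0.28 on the log2 scale (edgeR, adjusted p = 0.0146). Axin2, a scaffold of the β-catenin destruction complex and a Wnt target, fell by 0.32 (edgeR, adjusted p = 0.0395). Stmn4, a stathmin that binds tubulin dimers, measured 136 to 147 CPM in APP/PS1 mice and 162 to 180 CPM in NTG mice and fell by 0.26 (edgeR, adjusted p = 0.0102). Dync1h1, the heavy chain of cytoplasmic dynein, measured 793 ± 8.20 CPM in NTG mice (SD, n = 4) and 908 ± 34.1 CPM in APP/PS1 mice (SD, n = 5), and rose by 0.20 (edgeR, adjusted p = 0.0280). None of these 4 genes overlapped between the groups, which adds no support, since they were picked by their p in the same mice.
The calls of Axin2 and Dync1h1 each did not hold in 9 of 17 alternatives, with adjusted p up to 0.180 and 0.130. Axin2 lost its call without NTG mouse 8, 9 or 10 or APP/PS1 mouse 17, 18, 19 or 20, and Dync1h1 without any single NTG mouse or APP/PS1 mouse 17, 18, 19 or 20. Dvl1 lost its call without NTG mouse 9 or 10 and with the ribosomal RNA share as a covariate (adjusted p up to 0.0693 over these 3), and Stmn4 only with that covariate (adjusted p = 0.0993).

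Against NTG mice, the APP/PS1 + CP2 mice showed Stmn4 and Dync1h1 again, in a comparison with the same NTG mice. Stmn4 fell by 0.21 (edgeR, adjusted p = 0.0459) and Dync1h1 rose by 0.26 (adjusted p = 0.0186). Akt2, a kinase that phosphorylates and inhibits GSK3, measured 73.4 ± 2.84 CPM in NTG mice (SD, n = 4) and 61.7 ± 2.45 CPM after CP2 (SD, n = 5), and fell by 0.24 (edgeR, adjusted p = 0.0109). Ppp2ca, a catalytic subunit of the main tau phosphatase PP2A, fell by 0.17 (edgeR, adjusted p = 0.0479). Nes, which encodes the intermediate filament protein nestin, a CDK5 substrate, measured 9.74 ± 1.84 CPM in NTG mice (SD, n = 4) and 15.3 ± 1.71 CPM after CP2 (SD, n = 5), and rose by 0.66 (edgeR, adjusted p = 0.0124). None of these 5 genes overlapped between the groups, which again adds no support after their selection by p. In vehicle-treated APP/PS1 mice the 3 genes had values in the same direction against NTG mice, which did not pass: −0.16 for Ppp2ca (edgeR, adjusted p = 0.0749), 0.46 for Nes (adjusted p = 0.263) and −0.14 for Akt2 (adjusted p = 0.527). Between CP2 and vehicle in APP/PS1 mice they stood at −0.01, 0.19 and −0.10, with adjusted p of 0.823 or more.
Akt2 and Nes lost their calls only with all 3 groups in one fit (adjusted p = 0.178 and 0.0593). Dync1h1 did so without NTG mouse 8, 9 or 10 (adjusted p up to 0.0551), Stmn4 in 11 of 17 alternatives (adjusted p up to 0.138) and Ppp2ca in 12 of 17 (adjusted p up to 0.147). Both Stmn4 and Ppp2ca did so without any single NTG mouse and without mouse 21, 22, 24 or 25.

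Between APP/PS1 and NTG mice the medians of all lists but the neurofilaments lay between −0.08 and 0.05. In this comparison the 41 tested tau kinases outside the members had 0 calls (5 at an unadjusted p under 0.05). Their median log2 fold change was −0.05, with 13 values above 0 and 28 below, where the median over all genes was near 0. The 31 phosphatase genes stood at −0.04 with 0 calls (2 unadjusted) and the 16 tubulins at −0.08 with 0 calls (2 unadjusted), 13 of the 16 below 0. The 18 regulators of CDK5, calpains included, stood at 0.05 with 0 calls (4 unadjusted). Without mouse 16 the CDK5 regulators had 2 calls and a median of 0.03, the tau kinases 1 call (10 unadjusted), and the phosphatases 0 calls (7 unadjusted) with a median of −0.06. With CP2 against vehicle the medians of these 4 lists were 0.03, −0.02, 0.05 and −0.04 in the same order, and without mouse 16 they were 0.04, 0.01, 0.04 and −0.02, so that the sign for the phosphatases turned. Against NTG mice APP/PS1 + CP2 mice gave 0.00 for the tau kinases, −0.06 for phosphatases, −0.06 for tubulins and 0.01 for CDK5 regulators.

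Of the remaining lists, the 25 tested regulators of GSK3 had medians of −0.06, 0.03 and −0.02 in the 3 comparisons. In the first, 5 of their values were above 0 and 20 below. The 44 other microtubule-associated proteins stood at 0.00, 0.04 and 0.02, and the 29 motors at −0.05, 0.03 and −0.01. Of the motors 8 were above 0 and 21 below in the first comparison, and 23 above and 6 below in the second. The 27 tubulin chaperones and enzymes stood at −0.01, 0.02 and 0.02 with 0 calls in each comparison (1, 4 and 4 unadjusted). The 25 tau chaperones, turnover factors and partners stood at 0.0046, −0.01 and 0.00, also with 0 calls in each (3, 2 and 4 unadjusted). Without mouse 16 the first comparison gave 4 calls in place of 2 among regulators of GSK3 and 2 in place of 1 among other microtubule-associated proteins, with medians of 0.01 for the tubulin chaperones and enzymes and −0.02 for the tau chaperones and partners, both of the opposite sign to that over all mice. In the second the median of the GSK3 regulators was 0.05 without that mouse.

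The 5 neurofilament genes, which encode the intermediate filaments that lie beside microtubules in axons, had 0 calls in edgeR in each comparison. Between APP/PS1 and NTG mice their values were all below 0 (median −0.27, 2 at an unadjusted p under 0.05), and without mouse 16 the median was −0.20. Ina stood at −0.23 (edgeR, adjusted p = 0.0550), with an adjusted p of 0.00543 to 0.249 over 17 alternatives and under the threshold in 4 of them, and Nefl at −0.29 (edgeR, adjusted p = 0.226). With CP2 against vehicle all 5 values were above 0 (median 0.17, 1 unadjusted), and without mouse 16 the median was 0.04 with 3 above and 2 below. Against NTG mice APP/PS1 + CP2 mice had a median of −0.11 (1 unadjusted). Neurofilaments were singled out after their values were seen, and 2 of them are among the neuronal markers used above. Other lists share genes with the marker lists too. Camk2a and Prkcd are among the tau kinases, Stmn2 and Dcx among the other microtubule-associated proteins, and Tubb3 among the tubulins. The striatal marker Ppp1r1b is among the regulators of CDK5, and stood at 1.42 between APP/PS1 and NTG mice (edgeR, adjusted p = 0.392).

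**Figure D5:**
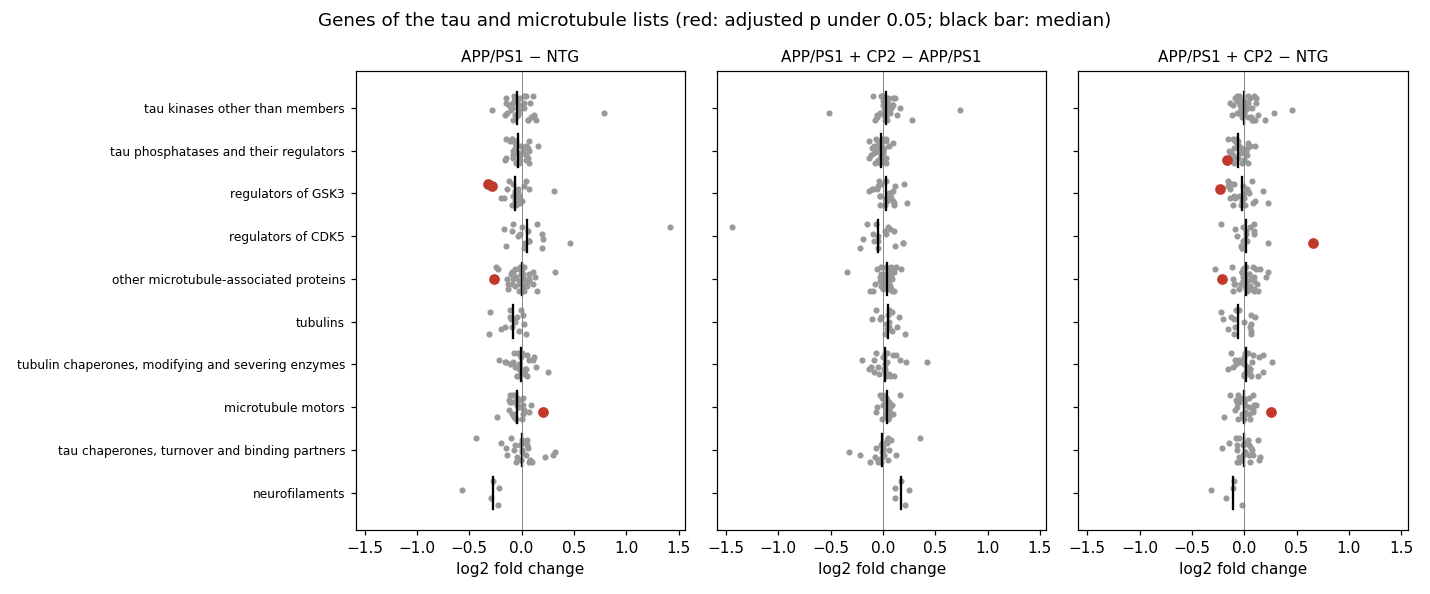
Log2 fold change of every tested gene of the 10 lists (points) in the 3 comparisons, on a common axis, with the median of each list as a black bar and genes with an adjusted p under 0.05 in red. Red points number 4 between APP/PS1 and NTG mice, 0 between the APP/PS1 groups and 5 between APP/PS1 + CP2 and NTG mice.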

How the data were processed

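RNA was extracted from frozen brain cross-sections and sequenced from TruSeq RNA v2 libraries, 1 per mouse. Per the paper's methods the authors aligned paired reads with TopHat2 to mm10 within MAP-RSeq and ran featureCounts on Ensembl genes, where a read counts on each gene it overlaps. The strand setting and the versions of these tools are not given in the sources used here. The authors deposited read counts without normalization and RPKM values per gene length and library size.

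Here edgeR 4.0.16 (R 4.3.3) was fitted to the counts of the 2 groups compared, with TMM factors, the quasi-likelihood test and Benjamini-Hochberg adjustment over all genes tested (adjusted p under 0.05). A gene was tested when its robust CPM (DESeq2 1.42.0) exceeded 1 in every mouse of at least 1 group. The study's script used DESeq2, an alternative here. RPKM served to order genes by level and as another scale for the differences of members. The procedure was tested on simulated data. Members and lists were chosen with earlier results of these data known. Named genes are the members, up to 3 listed genes per list and direction with the smallest p among those passing, and the 5 genes most like Mapt. Symbols used here matched the table for all but 2 listed genes, 5 of them through gene IDs under an older symbol. Alternatives were RLE and upper-quartile factors, no filter or a minimum of 10 counts per mouse, a joint fit of the 3 groups, limma-voom (limma 3.58.1) with quality weights, the share of 2 ribosomal RNA-like genes (2.40% to 7.50% of counts) as a covariate, and leaving out each mouse. No pair of replicates among 26 agreed within sampling noise. Per the paper's methods the NTG mice were littermates of APP/PS1 mice. Which of the sequenced mice shared a litter or batch is not given in the sources used here.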

Additional observations from a re-analysis of the deposited data

Results flagged for a closer look

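In the 45 groups of values screened (10 members and 5 ratios of members in 3 groups), 3 held a mouse whose gap to its neighbour was a large share of the group's range (Dixon's test), where chance gives about 1 group in 20. Cdk5r1 was 190 CPM in NTG mouse 7, against 246 to 250 CPM in the other 3 NTG mice. The log2 count ratio of Cdk5r1 to Cdk5 was 1.29 in the same mouse, against 1.58 to 1.63. The log2 count ratio of Cdk5r2 to Cdk5 was 1.58 in APP/PS1 mouse 16, against 1.01 to 1.17 in the other 4 APP/PS1 mice. NTG mouse 7 had the lowest cortical and the highest oligodendrocyte marker sum of the 14 mice, and mouse 16 the highest cortical and the lowest oligodendrocyte sum. The part of these in the values was not tested.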

How the results depend on the processing

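No paired analysis was possible because no pairing of mice between groups, such as by litter, is given in the sources used here. Among 520 refits of members, 1 passed at an adjusted p under 0.05 (Cdk5r2, −0.18, described above) and 6 had an unadjusted p under 0.05, so that the count of members passing was 0 in every comparison and alternative except without NTG mouse 7 (0 to 1 over APP/PS1 + CP2 against NTG mice). Unadjusted, leaving out a mouse gave 0 to 1 members between the APP/PS1 groups and 0 to 2 between APP/PS1 + CP2 and NTG mice. Over all mice 6.55% and 20.2% of all genes tested had an unadjusted p under 0.05 in these 2 comparisons. With 4 or 5 mice a group the intervals of members given above bound how precise each value is, and signs of members close to 0 moved freely.

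Counts of listed genes moved more. Between APP/PS1 and NTG mice (4) they were 15 with DESeq2, 13 with limma-voom, 8 with all 3 groups in one fit, 2 without a filter, 1 with the ribosomal RNA covariate and 1 to 10 leaving out mice. Between APP/PS1 + CP2 and NTG mice (5) they were 16 with DESeq2, 11 with limma-voom, 3 with all 3 groups in one fit, 3 without a filter, 3 at a minimum of 10 counts and 2 to 14 leaving out mice. All genes called numbered 1667 (DESeq2), 1563 (limma-voom) and 578 to 1486 (leaving out mice) in place of 932 between APP/PS1 and NTG mice, and 1670 (DESeq2) and 572 to 1123 (leaving out mice) in place of 989 between APP/PS1 + CP2 and NTG mice. Between the APP/PS1 groups they were 23 (DESeq2), 2 (ribosomal RNA covariate), 0 (3 groups in one fit) and 0 to 1 (leaving out mice) in place of 1. The cause of these moves was not tested.

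Signs turned as follows, all at an adjusted p of 0.539 or more. Between APP/PS1 and NTG mice limma-voom gave −0.00066 for Map1a and −0.013 for Gsk3b, upper-quartile factors 0.00048 for Cdk5 and the ribosomal RNA covariate 0.070 for Map1b. Between the APP/PS1 groups limma-voom gave 0.0034 for Gsk3a and 0.018 for Cdk5r2, and the ribosomal RNA covariate 0.049 for Cdk5r2. Leaving out mice, log2 fold changes between APP/PS1 and NTG mice ranged from −0.053 to 0.014 (Mapt), −0.0023 to 0.062 (Map1a), −0.097 to 0.0055 (Map1b), −0.0061 to 0.084 (Map6), −0.079 to 0.013 (Gsk3a), −0.0098 to 0.048 (Gsk3b), −0.034 to 0.011 (Cdk5) and −0.14 to 0.052 (Cdk5r2). Between the APP/PS1 groups they ranged from −0.0038 to 0.055 (Map1a), −0.016 to 0.0083 (Gsk3a), −0.036 to 0.012 (Cdk5), −0.033 to 0.14 (Cdk5r1) and −0.13 to 0.056 (Cdk5r2). Between APP/PS1 + CP2 and NTG mice they ranged from −0.0066 to 0.034 (Mapt), −0.049 to 0.0091 (Map2), −0.042 to 0.0099 (Cdk5) and −0.061 to 0.023 (Ina). Log2 ratios ranged between APP/PS1 and NTG mice from −0.11 to 0.041 (Cdk5r2/Cdk5) and −0.065 to 0.012 (Map2/Mapt), between the APP/PS1 groups from −0.084 to 0.059 (Cdk5r2/Cdk5) and −0.038 to 0.039 (Map2/Mapt), and between APP/PS1 + CP2 and NTG mice from −0.087 to 0.027 (Cdk5r1/Cdk5) and −0.15 to 0.0012 (Cdk5r2/Cdk5). The authors' RPKM has no TMM factor and divides by a library size other than the total of gene counts used for CPM. By RPKM every member's difference in mean log2 value was higher by 0.07 between APP/PS1 and NTG mice. It was higher by 0.06 between APP/PS1 + CP2 and NTG mice, and lower by 0.01 between the APP/PS1 groups (−0.01). Between APP/PS1 and NTG mice this turned the sign of 6 members (Mapt, Map1b, Map2, Gsk3a, Cdk5 and Cdk5r2), with Mapt at 0.03 in place of −0.04. Between APP/PS1 + CP2 and NTG mice it turned the sign of 4 (Map2, Gsk3a, Cdk5 and Cdk5r1), and between the APP/PS1 groups of 0. Each shift was smaller than the larger SD of log2 CPM among the 2 groups compared. For Mapt the shifts of 0.07 and 0.06 exceeded its pooled SD within groups of 0.05.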
